A study of Drosophila melanogaster with 66 samples.

Results

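The ecdysteroid kinase-like (EcKL) genes described here are 10 members of an insect gene family, CG11889, CG11891, CG10513, CG10514, CG11892, CG11893, CG10550, CG10553, CG10560 and CG10562, in their order along the right arm of chromosome 3 (3R) of Drosophila melanogaster. They were picked around CG11893 and CG10514, which moved in opposite directions in the founders of the study, so the genes were selected on founder values, which are given below as a description without a test. A gene was measured by its own probe set, the short oligonucleotides on the array that stand for 1 transcript, and by the one of highest mean where there were several. Of the 10 genes, 9 had exactly 1 probe set of their own, among 17104 entries on the arrays. CG11889 was paired only with a probe set that it shares with CG11891, and it enters no comparison.

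EcKL proteins are predicted small-molecule kinases named after an enzyme of the silkworm Bombyx mori that attaches phosphate to ecdysteroids, the steroid hormones of moulting and reproduction. A phosphorylated ecdysteroid does not activate the ecdysone receptor and can be stored and later released. The family is large in Drosophila, is also discussed as a group of detoxification enzymes, and the substrates of most members are not known, so no separate role can be given to each of the 10 genes.

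The RefSeq gene table for the assembly Release 6 plus ISO1 MT names 51 EcKL genes by clade. All 10 members lie in an uninterrupted run of 24 EcKL genes on 3R that begins with CG11889 and ends with CG10562. The other 14 genes of the run each had a probe set of their own, and CHKov1 and CHKov2, also EcKL genes, follow directly, which makes 26 in a row. The members come from several clades of the family (Dro1 for CG11889 and CG11891, Dro2 for CG10513, Dro3 for CG10514 and Dro4 for CG11892). The deposited values state no genome build, so only the order of the genes is given.

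The study profiled RNA of whole adult flies on 66 Affymetrix 3' IVT arrays over 4 generations descended from founders whose insulin-producing cells were ablated. The founders (F0 test) had the genotype rpr/cyo with dilp3/ser in the w1118 background: UAS-rpr, which places reaper, a gene that triggers cell death, behind a GAL4-responsive promoter, on chromosome 2 opposite the balancer CyO-YFP (cyo), and ilp3-GAL4 (dilp3), a driver active in insulin-producing cells, on chromosome 3 opposite the balancer Ser-GFP (ser). Founder males crossed to w1118 females gave 4 F1 sibling genotypes, each heterozygous over a w1118 chromosome: rpr/+ with dilp3/+, which holds driver and target, rpr/+ with ser/+, cyo/+ with dilp3/+, and cyo/+ with ser/+. The labelled F1 control is w1118 and serves here as the control of the founders too. F2 and F3 test flies descend in the paternal line from rpr/+ with ser/+ males, are w1118 and carry no construct or balancer, and have w1118 controls of their own generation. Each group was measured in females and in males with 3 arrays, except that F2 males and both sexes of F3 had 4 arrays a group. Each array holds RNA of a homogenate of many pooled flies raised at 25 °C.

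Levels are log2 GCRMA values as deposited. The lowest value, 2.2305, occurred on every array and the highest of the probe sets kept was 15.736. A level close to 2.23 is the floor of the scale. Array medians were 3.25 to 4.16 in the 36 F0 and F1 arrays and 3.30 to 4.50 in the 30 F2 and F3 arrays, and 3447 to 4532 against 4664 to 5576 probe sets stood at the lowest value. The generation and this difference between the sets of arrays cannot be told apart, so test and control are compared only within F0 with F1, within F2 and within F3. By group, all 7 measured female markers (yolk, eggshell and ovary genes) were lower in males. All 9 measured male markers (accessory gland and testis genes) were higher. Both held in the F1 siblings and again in F2 with F3, as the labels say. The summed female markers (log2 of the summed linear values) nevertheless ranged from 5.55 to 14.56 in the F2 control males. They ranged from 5.54 to 5.72 in the F2 test males and from 12.77 to 16.53 in the F2 control females. The highest F2 control male array thus lay within the female range. It was kept in the F2 comparison of males and in the sex comparison, and the cause was not tested. Changes are log2 differences ± standard error (SE) from limma's moderated test, which fitted all groups of a sex together with the labelled batch. A call means an adjusted p below 0.05, by the method of Benjamini and Hochberg, with every tested entry in the adjustment.

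In the founders CG11893 was high and CG10514 low, in both sexes. CG11893 stood at 8.65, 8.40 and 7.74 in the female founders against 3.28, 2.41 and 2.27 in the female control, a fitted difference of 5.46 ± 0.81. In males it stood at 9.47, 6.78 and 7.38 against 6.28, 2.25 and 2.38, a difference of 4.56 ± 1.61. The groups did not overlap in either sex, and 1 male control array, replicate 1, was nearly as high as the lowest founder array.

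CG10514 showed the opposite pattern. It stood at 3.32, 5.70 and 6.83 in the female founders against 8.25, 9.28 and 9.83 in the control, a difference of -4.31 ± 0.90. In males it stood at 5.78, 5.90 and 8.17 against 10.42, 10.31 and 11.21, a difference of -3.88 ± 0.61. Again no founder array reached a control array. In whole flies, fewer cells of a type and less RNA per cell cannot be told apart.

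The neighbours of CG10514 on both sides were low in the founders as well. CG11892, next to it, stood at 6.39, 5.76 and 7.80 in female founders against 8.84, 8.97 and 10.18 in the control, and at 7.68, 6.14 and 9.22 against 10.61, 10.05 and 11.17 in males. CG10513, on its other side, stood at 5.82, 5.65 and 6.14 against 6.85, 8.12 and 8.22 in females and at 7.0, 6.9 and 9.03 against 9.04, 9.23 and 10.33 in males. For both genes every founder array lay below every control array of its sex, although for CG10513 in males only by 9.03 against 9.04. How many of all entries separate in this way was not counted. Nothing is therefore read from the lack of overlap in these genes, CG11893 and CG10514 included.

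The remaining members differed less. CG10560 had a fitted difference of -2.09 ± 0.70 in females and -1.51 ± 0.45 in males, while CG10562 had 1.37 ± 0.44 in females and 0.22 ± 0.48 in males. CG11891 was near the floor on all control arrays (2.79 to 3.19) and stood at 5.89 on 1 female and at 3.87 on 1 male founder array, both of replicate 1. In this comparison, which picked the genes, 3 of 9 members were called in females (background 0.828% of entries) and 2 of 9 in males (background 3.43%), and nothing is read from these counts.

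Midgut markers were lower beside these genes. Of 16 measured midgut markers, such as trypsins, Jonah proteases and amylases, 3 had a positive founder difference in females and 2 in males, with medians of -0.83 and -1.03 against 0.00 and -0.03 over all entries, and 0 were called in females and 4 in males, all lower. Their summed level (log2 of the summed linear values) ranged from 14.47 to 15.26 in female founders and from 14.75 to 15.69 in the control, and from 15.02 to 15.41 against 15.33 to 15.78 in males. The 12 fat body markers had medians of -0.21 and -0.22 and the 12 Malpighian tubule markers 0.01 and -0.16. The part of these tissues in the EcKL values was not tested.

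**Figure D1:**
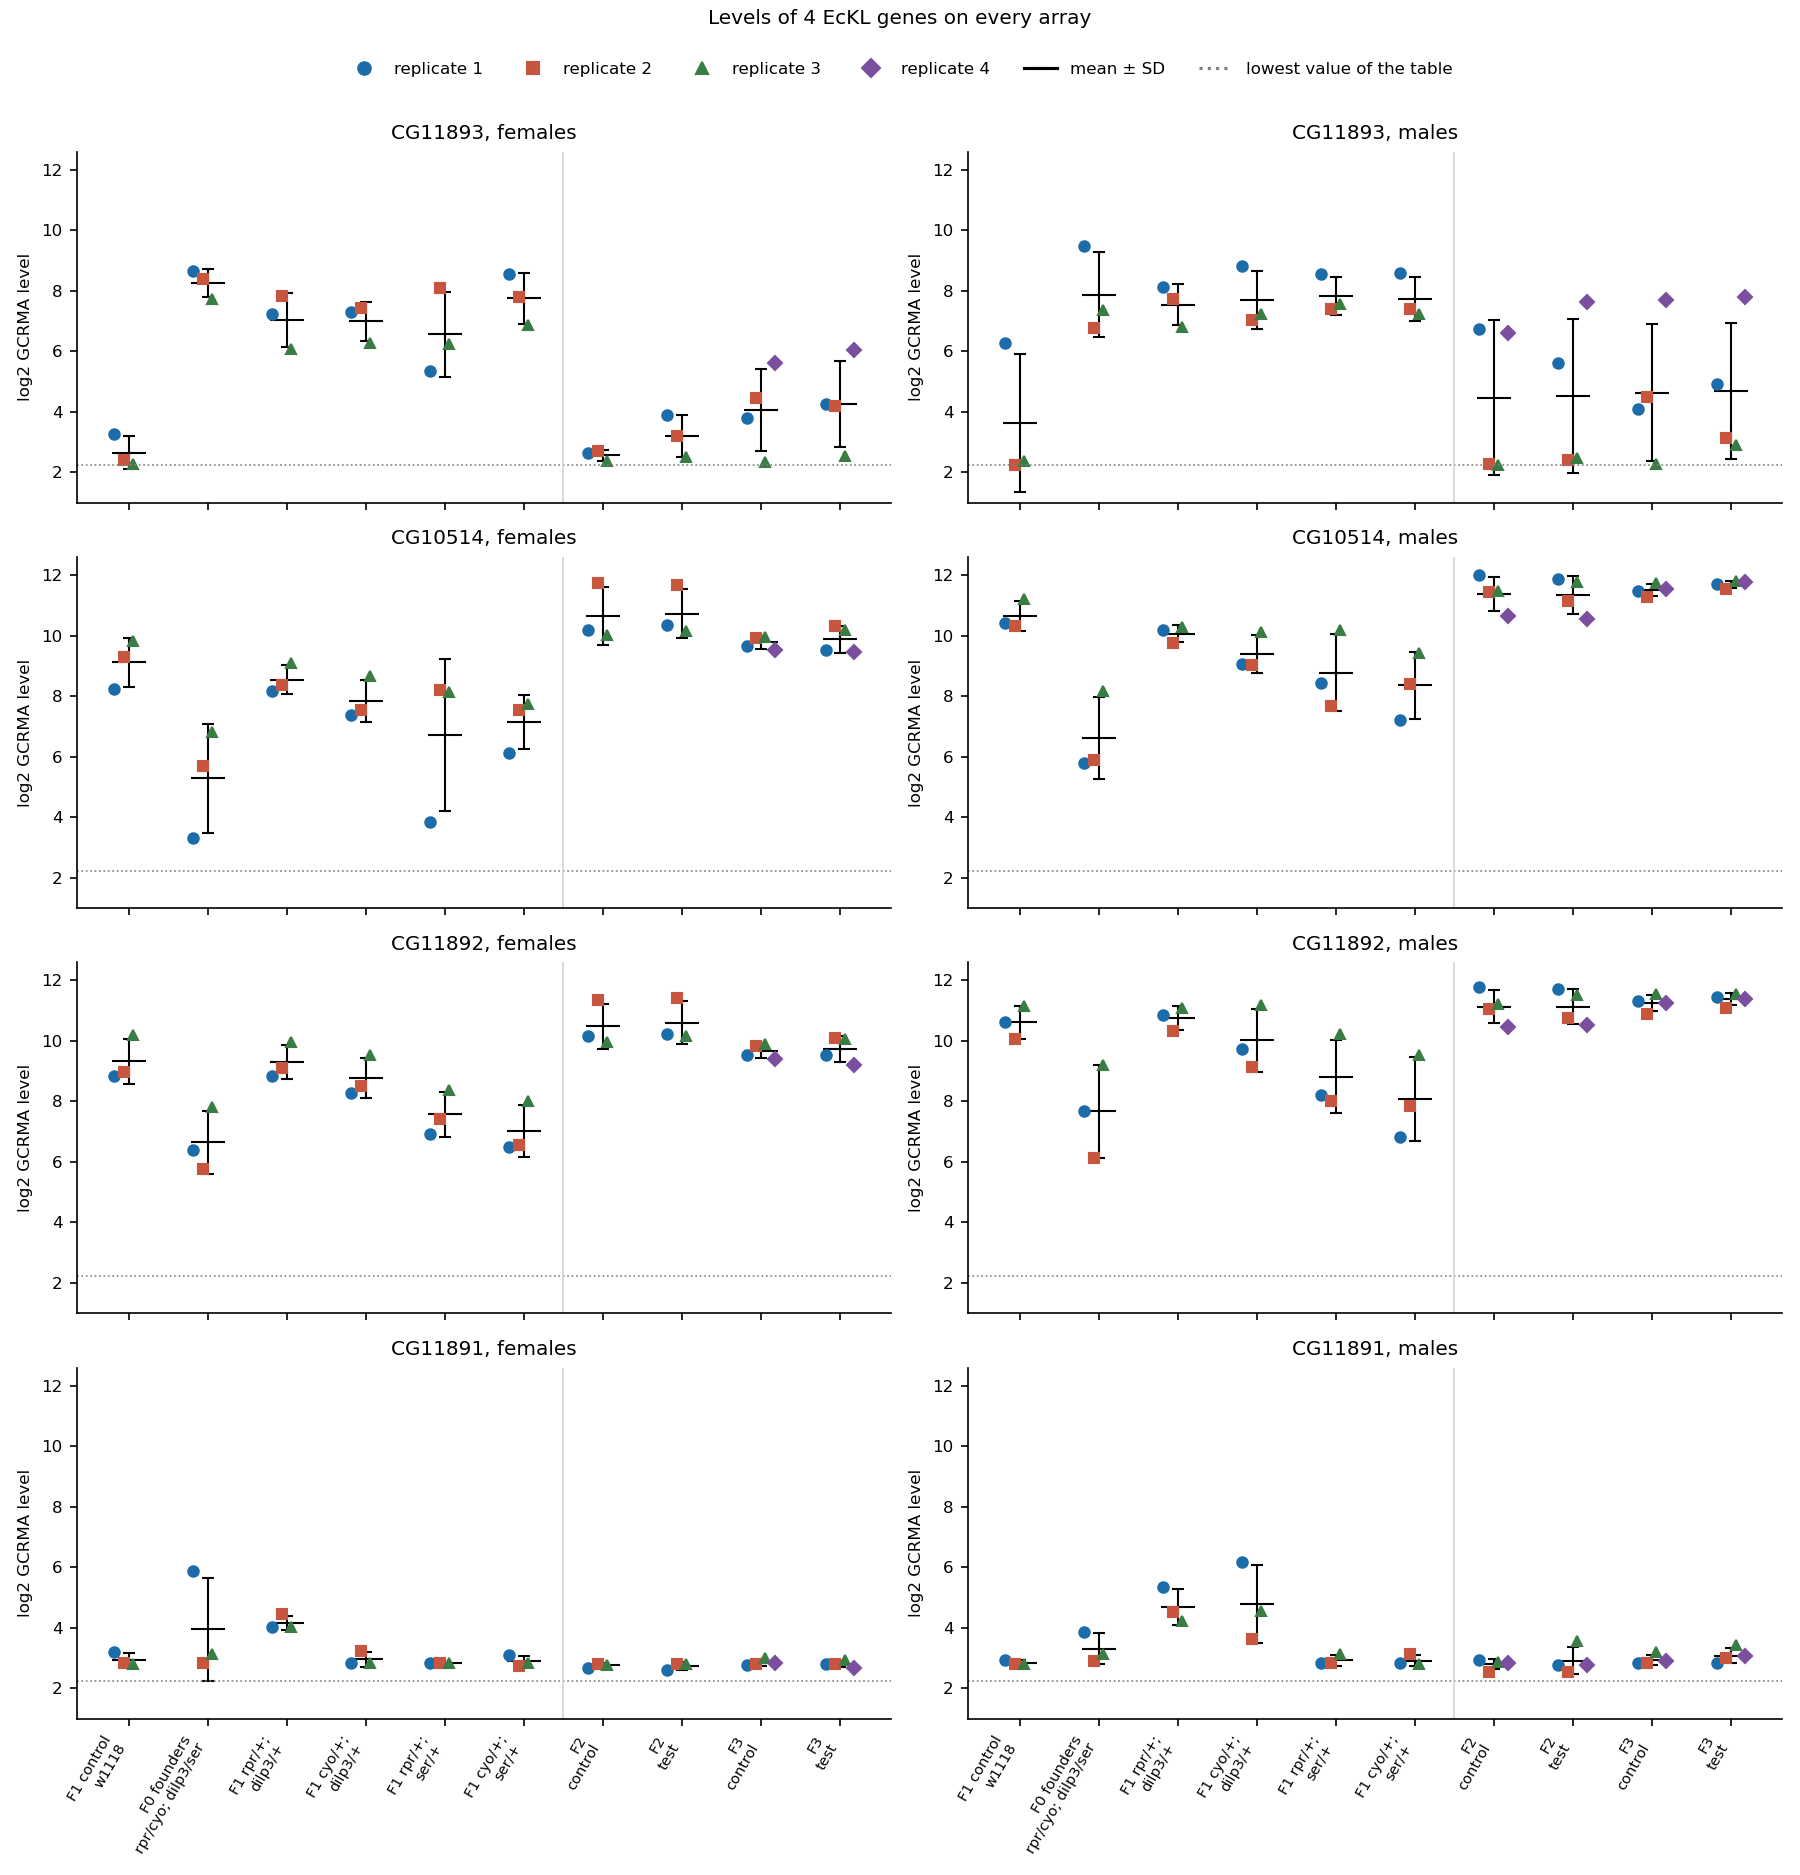
Log2 GCRMA level (vertical axis) of CG11893, CG10514, CG11892 and CG11891 on every array, by group (horizontal axis), females on the left and males on the right. Points are arrays, marked by replicate number, and bars are mean ± SD of 3 or 4 arrays. The dotted line is the lowest value of the table. CG11893 is high in the founders and in all 4 F1 sibling genotypes, and CG10514 and CG11892 are lowest in the founders. CG11891 rises above a level near the floor mainly in siblings with dilp3.

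CG11893 stayed high in every F1 sibling genotype. In females the means were 7.75 ± 0.85 (SD, n = 3) in cyo with ser, 7.04 ± 0.89 in rpr with dilp3, 6.99 ± 0.64 in cyo with dilp3 and 6.56 ± 1.39 in rpr with ser, against 2.65 ± 0.55 in the control. In males the 4 genotypes had means between 7.55 ± 0.68 and 7.83 ± 0.62 against 3.64 ± 2.29. The lowest sibling array was 5.35 in females, above all control arrays, and 6.80 in males, above the high control array at 6.28. The neighbouring genotypes in this order overlapped and differed by less than their SDs. The control arrays are those of the founder comparison, which chose the gene, so no p is given. How many of all entries separate siblings from control in this way was not counted, and nothing is read from the lack of overlap.

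CG10514 in the siblings lay between the founders and the control. In females its mean was 8.54 ± 0.48 (SD, n = 3) in rpr with dilp3, 7.85 ± 0.70 in cyo with dilp3, 7.13 ± 0.89 in cyo with ser and 6.72 ± 2.5 in rpr with ser, against 9.12 ± 0.80 in the control and 5.28 ± 1.79 in the founders. The low mean of rpr with ser in females came from 1 array at 3.83, and the other arrays stood at 8.20 and 8.13. In males the means were 10.07 ± 0.29 in rpr with dilp3, 9.40 ± 0.62 in cyo with dilp3, 8.77 ± 1.27 in rpr with ser and 8.36 ± 1.12 in cyo with ser, against 10.65 ± 0.49 in the control and 6.62 ± 1.35 in the founders. In both sexes the 2 dilp3 genotypes had higher means than the 2 ser genotypes, although neighbours in the order overlapped.

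Whether the sibling genotypes differed by the chromosome 3 they received was tested among the 12 sibling arrays of a sex, which the choice of genes did not use. CG11892 was higher with the dilp3 chromosome than with the ser balancer, and CG11891 was higher with dilp3 in males. These 2 of 9 members were called in males, where 0.933% of entries were called, and 0 of 9 in females, where 0.187% were called. At an unadjusted p under 0.05, 5 of 9 members passed in males and 3 of 9 in females (CG10513, CG10514 and CG11892), beside 1585 of 11357 and 1022 of 12809 entries.

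CG11892 stood at 10.84, 10.33 and 11.09 in males with rpr and dilp3 and at 9.74, 9.14 and 11.18 with cyo and dilp3. With ser it stood at 8.22, 8.03 and 10.22 with rpr and at 6.82, 7.86 and 9.55 with cyo. The dilp3 arrays were higher by 2.10 ± 0.47 (adjusted p = 0.0231, limma), but the groups overlapped because replicate 3 was high in every genotype. Compared within a replicate number, dilp3 was higher in 3 of 3 numbers, by 1.25 to 2.77, and within the batches that hold both chromosomes in 3 of 3, by 0.35 to 2.71. Replicate numbers were not taken to pair the arrays of male siblings, so the values by number are a description.

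In females CG11892 stood at 8.84, 9.12 and 9.95 with rpr and dilp3, at 8.27, 8.51 and 9.54 with cyo and dilp3, at 6.92, 7.43 and 8.37 with rpr and ser, and at 6.50, 6.55 and 8.02 with cyo and ser. Only ser replicate 3 with rpr exceeded the lowest dilp3 array. The difference was 1.72 ± 0.39 and missed the threshold (adjusted p = 0.0898, limma). It was 1.55 to 1.84 within the 3 replicate numbers and 1.08 to 2.62 within the 4 batches. In the female siblings same-numbered arrays deviated together in 18 of 18 pairs, and with replicate number fitted as a block in addition to batch the difference was 1.61 (adjusted p = 1.19e-06, limma). With that block 3 of 9 members were called in females, where the background was 15.3% of entries. The other 2 were CG10513, higher with dilp3 by 1.16 (adjusted p = 0.0419), and CG10514, by 1.48 (adjusted p = 0.04).

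CG11891 rose above a low level, near the floor of the scale, only on some arrays. In males it stood at 5.36, 4.53 and 4.21 with rpr and dilp3 and at 6.17, 3.62 and 4.56 with cyo and dilp3. With ser it stood at 2.82, 2.83 and 3.13 with rpr and at 2.83, 3.13 and 2.79 with cyo. Every dilp3 array of the males was thus above every ser array, which was so, in either direction, for 1.43% of the entries tested in males. The fitted difference was 1.84 ± 0.28 (adjusted p = 0.000558, limma). With the ser group near the floor it may understate the fold on the RNA scale, which was not tested. Within batches it was 0.81 to 2.37 and within replicate numbers, which were not taken to pair these arrays, 1.10 to 2.94.

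In females the arrays of 1 sibling genotype lay above the others in CG11891. It stood at 4.01, 4.44 and 4.04 with rpr and dilp3, and the other 9 sibling arrays lay between 2.74 and 3.23. How many of all entries set 1 genotype apart in this way was not counted, so nothing is read from it. The dilp3 genotypes together were higher by 0.63 ± 0.31 (adjusted p = 0.631, limma). The difference of the chromosome 3 effect between the sexes was 1.15 ± 0.43 (adjusted p = 0.348, both sexes in 1 limma fit), so a difference between males and females was not called. The female interaction for CG11891 was 0.69 ± 0.87 (adjusted p = 0.561). In the test of the chromosome 3 effect between the sexes none of the 9 members was called, beside 0.0753% of entries. There 1 of 9 members and 1303 of 13281 entries passed at an unadjusted p under 0.05.

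None of the other members was called by chromosome 3 without the block. CG10513 was higher with dilp3 by 0.97 ± 0.38 in males (adjusted p = 0.251) and 1.41 ± 0.44 in females (adjusted p = 0.33), and CG10514 by 1.22 ± 0.43 (adjusted p = 0.192) and 1.43 ± 0.61 (adjusted p = 0.566), by limma. CG10550 was the only member with values lower with dilp3 in males by more than its SE, at -0.52 ± 0.27 (adjusted p = 0.397). CG10553, CG10560 and CG10562 had values between 0.30 ± 0.33 and 0.59 ± 0.23 in males and between 0.34 ± 0.30 and 0.43 ± 0.47 in females. CG11893, in contrast to its difference from the control, had -0.02 ± 1.13 in males and -0.14 ± 0.55 in females.

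In the chromosome 3 comparison of males CG11891 was called without each of the 12 sibling arrays in turn (highest adjusted p = 0.0077), while CG11892 was called in 4 of these 12 fits and lost its call (adjusted p 0.0515 to 0.12) without replicate 1 of rpr with ser, rpr with dilp3 or cyo with ser, replicate 2 of rpr with ser, rpr with dilp3 or cyo with ser, or replicate 3 of either dilp3 genotype. With only the F0 and F1 arrays in the fit, which leaves fewer arrays to estimate the spread, the differences were 1.82 for CG11891 (adjusted p = 0.0782) and 2.23 for CG11892 (adjusted p = 0.255), with only the sibling arrays and no batch term they were 1.82 (adjusted p = 0.106) and 1.94 (adjusted p = 0.203), and without the filter on low values CG11892 had an adjusted p of 0.0503.

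Over the 9 measured members the median difference by chromosome 3 was 0.59 in males and 0.43 in females, with 7 of 9 positive in each sex, against -0.02 and 0.04 over all entries tested. The 14 other EcKL genes of the same run had medians of -0.08 and -0.04, with 1 of 14 called in males and 0 of 14 in females. That gene, CG31436, was higher with dilp3 by 1.44 ± 0.31 (adjusted p = 0.021, limma) and lies between CG11893 and CG10550. Of the EcKL genes elsewhere, 2 of 19 tested were called in males: CG6908, higher with dilp3 by 1.30 ± 0.22 (adjusted p = 0.0022), and CG31380, lower by 2.22 ± 0.32 on the log2 scale (mean 3.02 with dilp3 and 5.30 with ser, adjusted p = 0.000286). Of the 10 annotated genes flanking the run, 7 were tested and 0 called in either sex, and 5 in females and 4 in males had a positive difference.

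**Figure D2:**
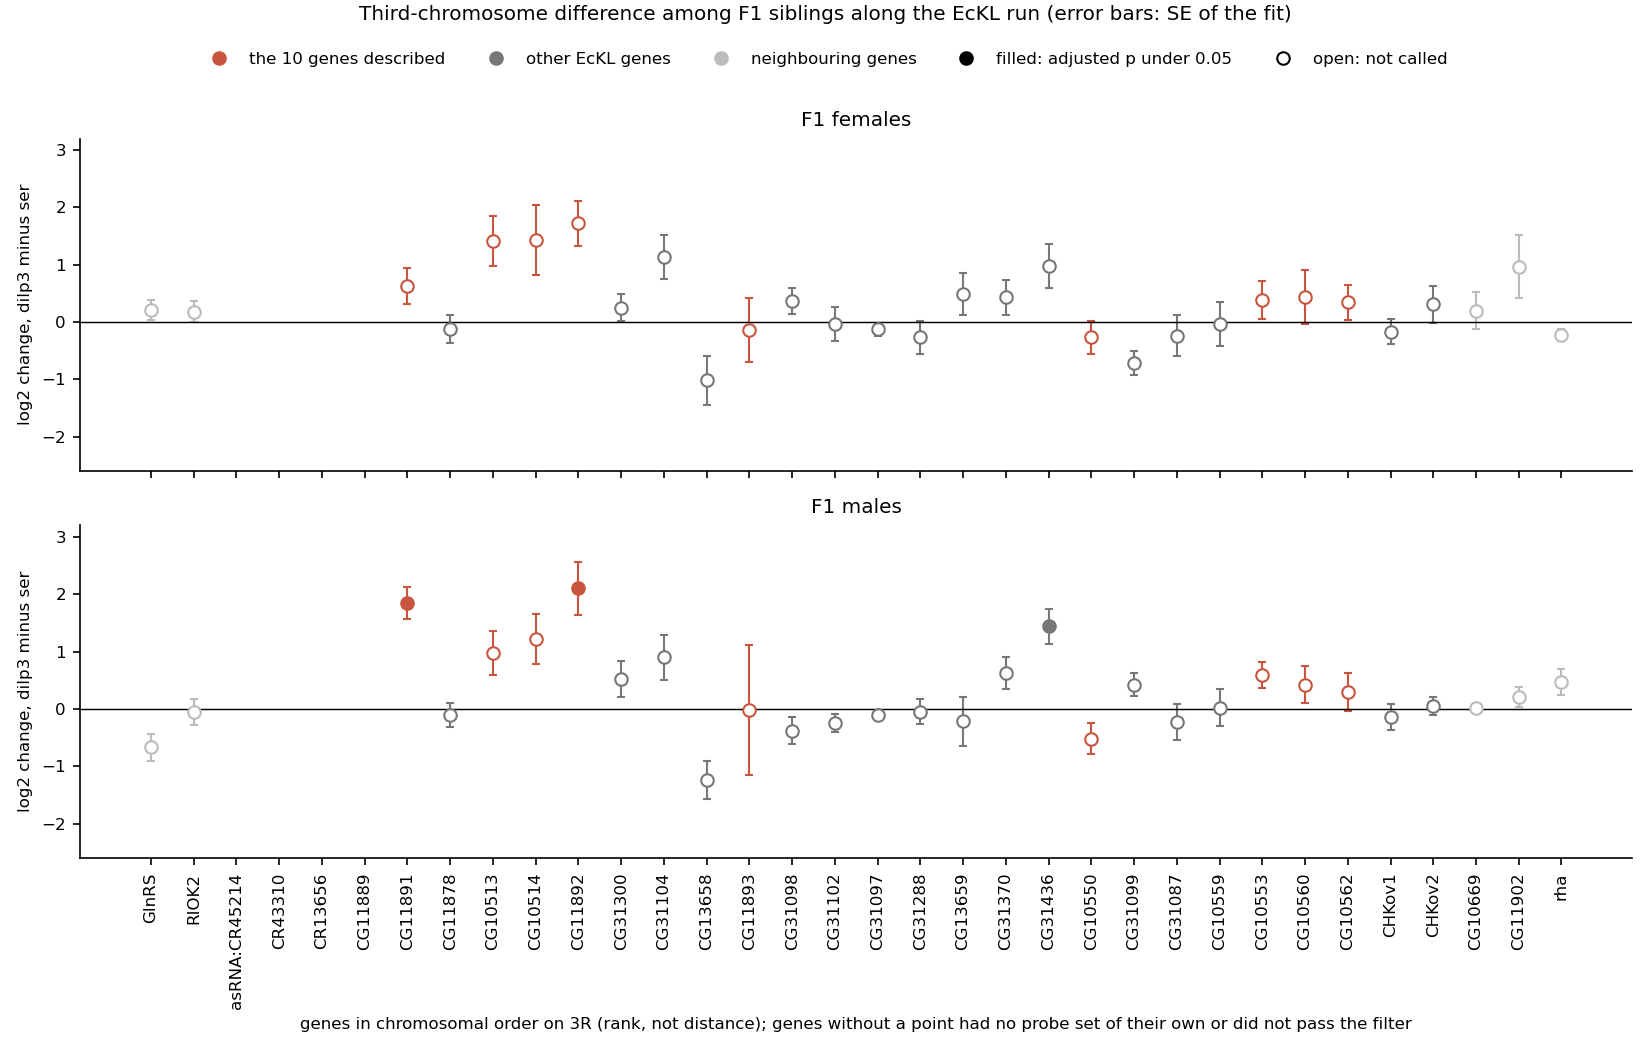
Fitted log2 difference between F1 siblings with dilp3 and with ser (vertical axis, error bars are the SE of the fit) for the genes of the EcKL run and its neighbours in chromosomal order (horizontal axis, rank and not distance), females above and males below. Filled points were called. In males CG11891 and CG11892 are called among the 10 genes described and CG31436 among the other EcKL genes of the run, while points of other signs lie between them.

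Midgut markers again stood beside these values. Of 16 midgut markers, 13 had a higher value with dilp3 in females and 14 in males, with medians of 0.42 and 0.46, and 0 were called in either sex by limma. Their summed level in males ranged from 15.65 to 15.76 with rpr and dilp3 and from 15.29 to 15.56 with cyo and dilp3, against 14.88 to 15.49 with rpr and ser and 15.15 to 15.55 with cyo and ser. In females it ranged from 15.10 to 15.48 and from 14.19 to 15.03 with dilp3, against 14.44 to 15.19 and 14.31 to 15.03 with ser. The part of the midgut in the EcKL values was not tested.

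Against the w1118 control, the 7 measured members other than CG11893 and CG10514 were tested in each sibling genotype. In males CG11891 rose with both dilp3 genotypes and with neither ser genotype. It was higher by 1.88 ± 0.40 with rpr and dilp3 (adjusted p = 0.0424, limma) and by 1.93 ± 0.38 with cyo and dilp3 (adjusted p = 0.0268), against control arrays at 2.93, 2.81 and 2.81. This was 1 of 7 members in each, beside backgrounds of 0.22% and 0.282%. The call with rpr and dilp3 was lost without any 1 of the 6 arrays compared (adjusted p 0.0529 to 0.369), and that with cyo and dilp3 without each of 5 (adjusted p 0.0651 to 0.132), all but replicate 2 of cyo with dilp3.

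With the ser balancer CG11892 lay below the control in both sexes. In males its difference was -2.55 ± 0.65 for cyo and ser (adjusted p = 0.11) and -1.78 ± 0.64 for rpr and ser (adjusted p = 0.379). It was -2.41 ± 0.56 in females with cyo and ser (adjusted p = 0.0932), so 0 of 7 members were called in these comparisons (backgrounds 0.396%, 0.484% and 0.18%). At an unadjusted p under 0.05, 2, 1 and 2 of 7 passed, beside 1030 and 892 of 11357 entries in males and 868 of 12809 in females. In these comparisons all same-numbered arrays deviated together, and with the replicate block the differences were -2.64 (adjusted p = 0.00171), -1.78 (adjusted p = 0.0187) and, in females, -2.11 (adjusted p = 2.73e-06), by limma. With the block 2 of 7 members were called in each, where 4.14%, 2.1% and 4.93% of entries were: beside CG11892 these were CG10560 in males, at -0.85 (adjusted p = 0.0364) for the cyo and -0.87 (adjusted p = 0.0361) for the rpr genotype, and CG10513 in females with cyo and ser, at -2.10 (adjusted p = 0.0299). Of the EcKL genes that are no members, CG31380 was higher in males with either ser genotype, by 2.13 ± 0.45 with cyo (adjusted p = 0.0306) and 2.22 ± 0.44 with rpr (adjusted p = 0.0133), and CG6908 was lower with cyo and ser, at -1.44 ± 0.31 (adjusted p = 0.038).

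In females with rpr and dilp3, which hold driver and target, 0 of 7 members were called (background 0.117%), and 2 of 7 and 579 of 12809 entries passed at an unadjusted p under 0.05. CG11891 had 1.23 ± 0.44 there (adjusted p = 0.831) and CG10562 had 0.88 ± 0.42 (adjusted p = 1).

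The female arrays of 2 genotypes, cyo with dilp3 and rpr with ser, share no batch with the female control, so for these genotypes the fitted difference rests on other groups to separate batch from genotype, and genotype and batch cannot be told apart from these arrays alone. CG10513 was called lower with rpr and ser, at -3.22 ± 0.79 (adjusted p = 0.0194, background 8.55%), where the plain difference of the group means was -1.56 and the difference with the replicate block -1.85 (adjusted p = 0.261, with 4.36% of entries called). With cyo and dilp3, CG10513 was called at -2.46 ± 0.79 (adjusted p = 0.0341) beside a plain difference of -0.80, and CG10550 at -1.73 ± 0.53 (adjusted p = 0.0276) beside -0.58, where 20.4% of entries were called. With the replicate block these were -1.09 (adjusted p = 0.658) and -0.47 (adjusted p = 0.817), and 0 of 7 members were called, beside 0.664% of entries. The interaction of the chromosomes in females, called for CG10550 (2.99 ± 0.83) and CG10553 (2.64 ± 0.92) with 31.1% of entries, has the same limit: the plain values on the same scale were 0.73 and 0.06. The same holds for the other EcKL genes called there. Of the 34 tested that are neither members nor CHKov1 or CHKov2, 11 were called lower and 1 higher with cyo and dilp3, 8 lower and 0 higher with rpr and ser, and 15 positive and 1 negative in the interaction. Those of smallest p that are no members were CG13658, CHKov1, CHKov2 and CG5126 with cyo and dilp3, CG13659, CG32195 and CG9259 with rpr and ser, and CG13659, CG31102, CG32195 and CG5126 in the interaction.

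In males the interaction, which asks whether driver and target together do more than the sum of both chromosomes, was called for 0 of 9 members and 0% of entries, and 0 of 9 members and 392 of 11357 entries passed at an unadjusted p under 0.05 (limma). CG11891 had -0.05 ± 0.56 and CG11892 0.27 ± 0.93. By chromosome 2, rpr against cyo, 0 of 9 members were called or passed an unadjusted p under 0.05 in either sex, where 0.234% of entries were called in females and 0.229% in males, and 1060 and 802 entries passed unadjusted. The largest values were 0.90 ± 0.47 for CG11892 in males (adjusted p = 0.744) and 0.65 ± 0.44 for CG10513 in females (adjusted p = 0.704).

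Set against F1 flies with both constructs, the founders were again low in CG10514, CG11892 and CG10513. The fitted differences were -3.65 ± 0.88, -2.75 ± 0.56 and -2.24 ± 0.63 in females and -3.45 ± 0.59, -3.07 ± 0.64 and -2.07 ± 0.52 in males, while CG11893 had 1.15 ± 0.79 and 0.33 ± 1.56. Founders and these siblings both hold rpr and dilp3, and the founders also hold both balancers. The founder arrays chose the genes, so these values carry no test. In this comparison 1 of 9 members in females (background 0.359%) and 3 of 9 in males (background 1.66%) were past the call threshold, and nothing is read from that.

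In the construct-free descendants no member was called between the test and the control lineage. None of the 9 passed an unadjusted p under 0.05 in F2 or F3 of either sex, where 0% of entries were called and 20 to 97 entries passed unadjusted (limma). The fitted differences of the 9 members ranged from -0.29 to 0.62 in F2 females, from -0.05 to 0.16 in F2 males, from -0.12 to 0.20 in F3 females and from 0.05 to 0.26 in F3 males. The SE of this fit reached 0.85 in females and 1.35 in males. The F2 control males include the array with female markers in the female range. With the replicate block, which the numbering allows here, 0 of 9 were called as well.

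CG11893 varied widely among these w1118 flies, but alike in test and control. In F3 females it stood at 3.81, 4.47, 2.34 and 5.60 in the control and at 4.26, 4.21, 2.53 and 6.03 in the test lineage, by replicate number. In F3 males it stood at 4.08, 4.50, 2.28 and 7.69 against 4.92, 3.14, 2.92 and 7.80. In both sexes and both lineages number 3 was close to the floor and number 4 the highest.

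In F2 males CG11893 stood at 6.74, 2.28, 2.23 and 6.62 in the control and at 5.60, 2.41, 2.46 and 7.63 in the test lineage, so that numbers 1 and 4 were high and numbers 2 and 3 near the floor. F2 females had no high array, with 2.64, 2.71 and 2.36 against 3.89, 3.19 and 2.51. In males the control arrays spanned 4.51 log2 units in F2 and 5.41 in F3, while the test array differed from the control array of its number by a median of 0.62 and 0.74 in absolute size. In F3 females these values were 3.26 and 0.34, and in F2 females, where all controls were near the floor, 0.35 and 0.47. The F1 male control had the same kind of spread, with 1 array at 6.28 and the others at 2.25 and 2.38, whereas none of the 30 founder and sibling arrays was below 5.35. Arrays of w1118 flies reached that range too, up to 7.80 in F3 males, and nothing is read from this contrast.

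CG10514 was high in all of these flies. It ranged from 9.45 to 11.74 in females and from 10.54 to 12.00 in males, and test and control of a number differed by a median of 0.14 in females and 0.23 in males. CG10513 spanned 2.77 log2 units among F2 female controls, with its highest level, 11.52, on replicate 2, and CG10553 and CG10560 were highest on that array too, at 10.59 and 10.89. Their test arrays of the same number stood at 10.78, 10.50 and 10.75. CG11891 stayed between 2.55 and 3.55 on all 30 arrays.

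**Figure D3:**
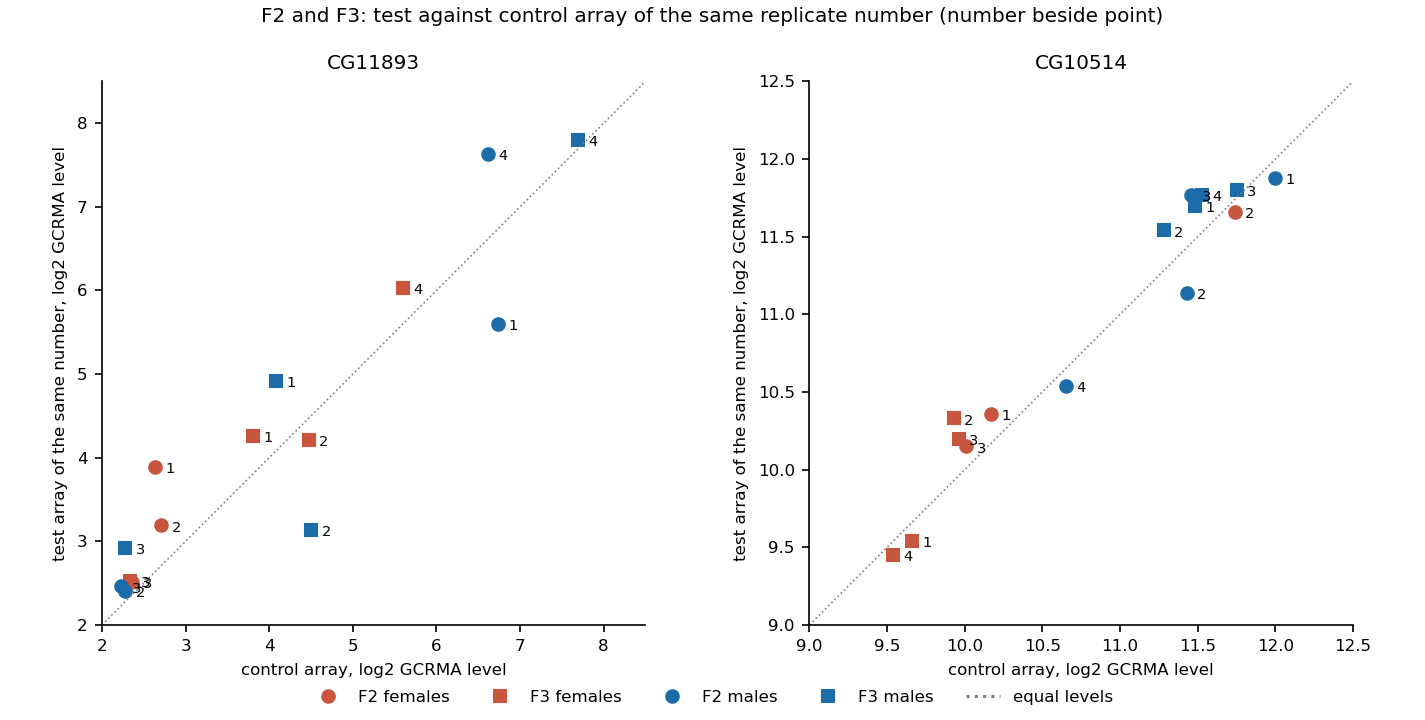
Test array (vertical axis) against the control array of the same replicate number (horizontal axis) in F2 and F3, both as log2 GCRMA level, for CG11893 (left) and CG10514 (right). Each point is a pair, with its number beside it, and the dotted line marks equal levels. In F3 males CG11893 spans 2.28 to 7.69 among control arrays. There the test array differs from the control array of its number by -1.36 to 0.84, with a median absolute size of 0.74.

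Most members were higher in males. Over the 12 F1 sibling arrays of each sex, 7 of 9 members were called, all higher in males, where 71.4% of all entries were called in either direction. Over the F2 and F3 arrays it was again 7 of 9, all higher in males, beside 71.7%. The members' median difference, male minus female, was 1.23 and 1.12, against -0.08 and -0.02 over all entries.

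CG10553 and CG10560 were each called in both sets, with 1.88 ± 0.24 (adjusted p = 1.58e-09, limma) and 1.90 ± 0.23 (adjusted p = 2.2e-10) for CG10553, and 1.73 ± 0.31 and 1.91 ± 0.29 for CG10560. CG10513 had the largest difference in the siblings, 2.56 ± 0.32 (adjusted p = 1.38e-09), and 1.33 ± 0.31 in F2 with F3 (adjusted p = 0.000128). CG10514, CG11892 and CG10550 were higher in males by 1.11 ± 0.29 to 1.68 ± 0.39. The 7 called genes were not the same in both sets. CG10562 was called in F2 with F3, at 0.96 ± 0.22 (adjusted p = 0.000141), and had 0.10 ± 0.23 in the siblings (adjusted p = 0.719). CG11891 was called in the siblings, at 0.58 ± 0.21 (adjusted p = 0.014), and had 0.22 ± 0.20 in F2 with F3 (adjusted p = 0.36). Its call was lost without replicate 1 of the males with cyo and dilp3 (0.35, adjusted p = 0.0981). Under quantile normalization CG11891 had 0.12 in the siblings (adjusted p = 0.641, limma), and its value in F2 with F3 turned to -0.47 and was called lower in males (adjusted p = 0.0428). Whether the sex difference itself changed between the sets of arrays was not tested. CG11893 was called in neither, with 0.61 ± 0.65 and 1.04 ± 0.62.

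The rest of the family also tended to higher levels in males. Of the 14 other genes of the run, 8 were called higher and 0 lower in the siblings, and 10 higher and 1 lower in F2 with F3. Of the 20 EcKL genes elsewhere, 13 were higher and 2 lower, and 15 higher and 3 lower. Over all 13281 entries 4204 were called higher and 5277 lower in males in the siblings, and 4305 higher and 5218 lower in F2 with F3. The share called in either direction was thus 71.4% and 71.7% over all entries, and the family differed from it in direction. CG31099, inside the run, had the smallest p of the family, higher in males by 4.67 ± 0.17 in the siblings and 5.76 ± 0.16 in F2 with F3, where the female mean was 2.67, near the floor. CG14314 and CG11878 were also higher in males in both sets, by 1.55 ± 0.20 to 1.94 ± 0.17, and CG5126 lower, with differences of -1.53 ± 0.18 and -1.14 ± 0.17. CG2004 was lower in the siblings (-0.50 ± 0.11), and CG31098 and CG13813 in F2 with F3 (-0.62 ± 0.17 and -0.47 ± 0.14). Malpighian tubule markers moved the same way, with 9 of 12 higher and 1 lower in each set and medians of 1.40 and 1.28, while midgut markers had 7 higher and 1 lower of 16, and 5 higher and 1 lower. The part of organ size in the EcKL sex difference was not tested.

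**Figure D4:**
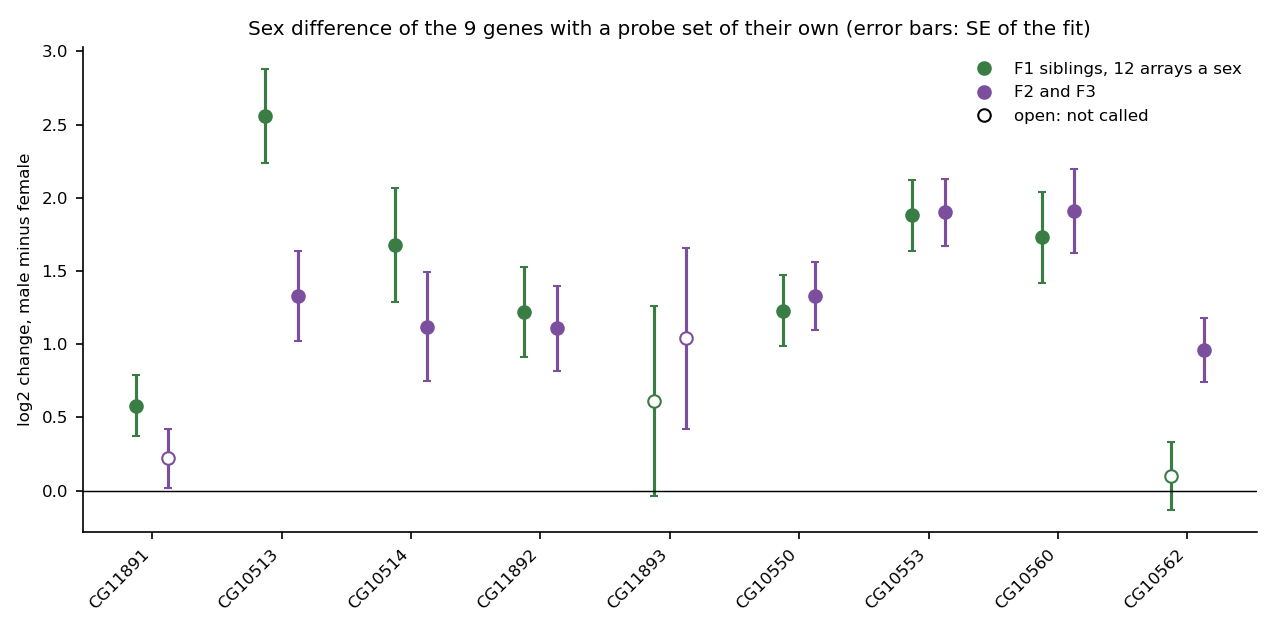
Fitted log2 difference, male minus female (vertical axis, error bars are the SE of the fit), for the 9 genes with a probe set of their own (horizontal axis), in the F1 siblings and in F2 with F3. Filled points were called. All 18 points are above 0, although CG11891 in F2 with F3 falls to -0.47 under quantile normalization, with CG11893 open in both sets, CG10562 open in the siblings and CG11891 open in F2 with F3.

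Genes of ecdysteroid production, inactivation and signalling were read beside the kinases. The list held 30 genes, among them the steroid hydroxylases phm, dib, sad and shd, the ecdysteroid-inactivating enzymes Cyp18a1 and Eo, the receptor genes EcR and usp, and targets such as Eip75B and br. Of these, 22 had a probe set of their own, 19 were tested in females and 11 in males. None was called by chromosome 3 in either sex, with medians of 0.02 in females and -0.13 in males, and none in the founders, with medians of 0.04 and 0.06. Between the sexes 5 of 19 were higher and 10 of 19 lower in males in the siblings, and 4 higher and 12 lower in F2 with F3. Over all entries 71.4% and 71.7% were called in either direction, so these counts are near the background.

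The shared probe set of CG11889 and CG11891 was well above the floor in every group, unlike the probe set of CG11891 alone. It had means of 9.43 ± 0.30 (SD, n = 3) and 9.41 ± 0.44 in males with dilp3, against 8.72 ± 1.09 and 8.63 ± 1.01 with ser and 8.91 ± 0.48 in the control, and 7.56 ± 0.37 and 7.58 ± 0.34 in females with dilp3 against 6.63 ± 1.52 and 6.51 ± 1.78 with ser and 6.56 ± 1.37 in the control. The dilp3 means were higher in each case, but the ser arrays spread widely, from 4.46 to 7.80 in females and from 7.55 to 9.71 in males, and overlapped with them. Its signal cannot be divided between the 2 genes, which overlap in the gene table. A probe set shared by CG11893 and CG14354 stayed between 2.40 and 3.48 in all female groups, founders included. In males it stood between 3.09 and 5.16, with means of 3.95 ± 0.47 (SD, n = 3) in the founders and 4.42 ± 0.77 in the control. In neither sex did it show the founder level of the probe set of CG11893 alone.

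Likeness across the 36 F0 and F1 arrays was measured by Pearson's r after subtracting the mean of each sex, among 9420 entries with a symbol that were tested in both sexes. These arrays share genotypes and batches, so r is a description. They include the founder and control arrays on which CG11893 and CG10514 were picked for opposite movement. A negative r between these genes therefore follows in part from that choice, and nothing is read from it. The entries most like CG10514 were CG9259, an EcKL gene on 2L (r = 0.89), its neighbours CG10513 (r = 0.88) and CG11892 (r = 0.85), the cytochrome P450 gene Cyp12d1-d (r = 0.85) and Npc2f (r = 0.84). Those most like CG11893 were SCAP (r = 0.77), the glutathione transferase gene GstE11 (r = 0.76), DCTN3-p24 (r = 0.74), Spn47C (r = 0.74) and the cytochrome P450 gene Cyp6a20 (r = 0.73), all on 2R and none an EcKL gene. Among the members, CG10553 and CG10560 had r = 0.77 and CG10513 and CG11892 r = 0.84. CG11893 had r = -0.51 with CG10514, -0.49 with CG11892 and -0.45 with CG10513, and its highest r with a member was 0.56, with CG10562.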

How the data were processed

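Whole flies were measured on 1-colour Affymetrix 3' IVT arrays. The authors deposited log2 values per probe set and array, and, per the submitters' processing notes, used GCRMA (no version given) and limma 3.46.0, whose role is not stated. GCRMA pulls dim probe sets to a common floor, so differences against a group near 2.23 are compressed. No genome build is given in the sources used here.

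From the 18952 probe sets, 183 controls were left out. Probe sets were named from the platform annotation (13647 with 1 gene, 402 with several, 4720 with none), and the probe set of highest mean stood for a gene, which left 17104 entries. An entry was tested where it exceeded the 40th percentile of a sex's values (2.5057 in females, 2.6348 in males) on at least 3 arrays: 12809 entries for females, 11357 for males and 13281 for both sexes together. All 9 measured members passed this filter in both sexes. limma 3.58.1 in R 4.3.3 fitted all groups of a sex with the 4 labelled batches as a factor (19 residual degrees of freedom in females, 21 in males, 43 for both sexes). Adjusted p-values are Benjamini-Hochberg values over all entries of a comparison. The study describes biological replicates, and p-values measure the spread between these arrays. There is no read depth on arrays, so precision is set by how many there are.

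Replicate numbers were taken to pair arrays where the deviations from the group means of every same-numbered pair correlated at over 0.1. This held in all female comparisons (lowest r 0.14) and, in males, in F2, F3 and every sibling genotype against the control except rpr with dilp3. It did not hold in the male founder comparison (2 of 3 pairs), in males with rpr and dilp3 (2 of 3) or among the male siblings (17 of 18).

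The 10 members and the lists (other EcKL genes, ecdysteroid pathway, midgut, Malpighian tubule, fat body, female and male markers) were chosen with earlier results of these data known. The text names all members, of the other EcKL genes the called ones with the 3 smallest p in each direction of a comparison, neighbours called by chromosome 3, and the 5 entries most like CG11893 and CG10514. Founder comparisons were fitted but not tested for the members, and CG11893 and CG10514 have no p against the F1 control.

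Alternatives were no batch term, the replicate block, other sets of arrays, no filter or one at the 60th percentile, quantile normalization, each probe set tested, and leaving out each array. The fit of the chromosome 3 comparison was also run on simulated data with independent noise, no batch effect, no shared deviation of same-numbered arrays and no filter. Such data cannot show how the fit handles the batches and replicate numbers of these arrays. Plots used Python 3.11.15 with matplotlib 3.10.9.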

Additional observations from a re-analysis of the deposited data

Results flagged for a closer look

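Of 54 groups of 4 arrays examined, 1 for each member and each group of F2 males and of F3, 3 held an array far from the others, and chance alone flags about 1 group in 20. CG10560 stood at 9.75 in replicate 3 of the F2 control males, where the nearest other array was 10.62, and at 10.1 in replicate 3 of the F2 test males, where the nearest was 10.67. These arrays share their replicate number and their labelled batch. CG10562 stood at 7.78 in replicate 2 of the F2 test males, against 8.9 for the nearest array, and the F2 control array of that number was the lowest of its group too, at 7.58.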

How the results depend on the processing

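Counts of called members depend on how the arrays are fitted. In the female comparisons confounded with batch the values moved strongly too. With the replicate block the female interaction went from 2.99 to 0.62 for CG10550 and from 2.94 to 0.30 for CG10513. Among the F1 siblings, the replicate block beside batch raised the members called by chromosome 3 from 0 to 3 of 9 in females and from 2 to 6 of 9 in males, where the numbers were not taken to pair the arrays. In males these were CG11891 (1.79, adjusted p = 0.00241), CG11892 (2.06, adjusted p = 0.000773), CG10514 (1.16, adjusted p = 0.0207), CG10513 (0.94, adjusted p = 0.0381), CG10553 (0.56, adjusted p = 0.028) and CG10550 (-0.54, adjusted p = 0.0347), by limma, with 7.04% of entries called. Against the control the block gave 2 called members with cyo and ser in each sex and 2 in males with rpr and ser, in place of 0. It gave 0 in place of 1 in females with rpr and ser, 0 in place of 2 in females with cyo and dilp3, and 0 in place of 1 in males with rpr and dilp3, where CG11891 had 1.79 (adjusted p = 0.0657). In the female interaction it gave 0 in place of 2. The block changed no count in F2, F3, by chromosome 2 or between the sexes.

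Without a batch term, with only the F0 and F1 arrays, and with only the compared groups (with or without the block), 0 members were called in females with cyo and dilp3, in females with rpr and ser and in the female interaction. With only the F0 and F1 arrays or only the compared groups, 0 were called in males with cyo and dilp3 or with rpr and dilp3. The chromosome 3 comparison of males called 0 with only the F0 and F1 arrays and 0 with only the compared groups. With only the compared groups and the block, an alternative added after the data were seen, it called 2 in each sex. In males these were CG11891 (adjusted p = 0.0448, limma) and CG11892 (adjusted p = 0.025), and the other 4 members called with the block beside batch were not (adjusted p 0.0601 to 0.137). Without the filter 1 member was called by chromosome 3 in males, 1 in females with cyo and dilp3 and 0 in males with rpr and dilp3. With the filter at the 60th percentile, which CG11891 did not pass, these were 1 by chromosome 3 in males, 0 in males with rpr and dilp3 and 0 with cyo and dilp3. Quantile normalization left 1 in the female interaction. Leaving out each array in turn gave 0 to 2 members by chromosome 3 in females and 1 to 3 in males, 1 to 4 in the female interaction, 0 to 2 in females and 0 to 1 in males with cyo and dilp3, 0 to 1 with cyo and ser in either sex, 0 to 1 in females with rpr and ser, and 0 throughout in males with rpr and dilp3.

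A value counts here as reversed where its sign changed and it was called in at least 1 of the 2 fits. The values that reversed by this rule lie in the female comparisons confounded with batch, apart from 1. Values called in neither fit changed sign as well and are not listed. With the block CG10560 in the female interaction went from 3.12 to -0.92, and CG10553 in females with cyo and ser from -0.40 to 0.15. CHKov1 with cyo and dilp3 (-1.57) became 0.02 without a batch term and with only the compared groups, and 0.24 with the block. The female interaction of CG5126 (-1.60) became 0.11 in the same settings without a batch term and 0.81 with the block, and with the block that of CG10553 became -0.68 and that of CG31102 -0.51. CG11891 between the sexes in F2 with F3 became -0.47 (adjusted p = 0.0428, limma) under quantile normalization, from 0.22. The cause of these changes was not tested. Signals near the floor, as for CG11891 and for CG11893 in controls, limit what can be measured.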
